A study of Mus musculus with 9 samples.

Results

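The SoxB genes Sox1, Sox2, Sox3, Sox14 and Sox21 were examined for binding of the bHLH transcription factor TWIST1, and these are 5 of the 21887 mouse protein-coding genes to which peaks could be assigned. A peak belonged to a gene when its summit lay inside the gene body, or, outside all genes, when that gene was the nearest within 100 kb. By this rule the 5 genes held 12, 81, 63 and 9 peaks in the 4 libraries from TWIST1-expressing cells, 0 in each of the 2 libraries from Twist1-null cells and 1 in the input DNA. TWIST1 occupancy was mapped by ChIP-seq (chromatin immunoprecipitation followed by sequencing) in embryoid bodies made from the A2loxcre mouse embryonic stem cell line, which were differentiated toward neuroepithelium for 3 days.

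The OE libraries (labelled Twist1-OE) came from Twist1-/- cells that carry a doxycycline-inducible Flag-Twist1 cassette. The KO libraries (labelled Twist1-KO) came from Twist1-/- cells that lack the cassette, so both groups lack the endogenous factor. All cells received doxycycline for the last 16 h and carry the strain label C57BL/6. The antibody was against TWIST1 itself, and TWIST1 in the OE cells was made at the level and in the cells that the induced cassette sets. There were 4 OE ChIP, 2 KO ChIP and 1 KO input peak lists, with the 2 OE inputs left aside (not analysed here). The design text speaks of biological replicate experiments, without saying whether a line is 1 clone or several. The lists hold no expression values, so neither the levels of the 5 genes nor the state of the cells was measured.

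SOX proteins bind DNA through a high-mobility-group domain, usually beside a partner factor such as a POU protein. The SOXB1 proteins SOX1, SOX2 and SOX3 act mainly as activators, hold neural progenitors in a dividing, undifferentiated state and overlap widely in function, and SOX2 is in addition a core pluripotency factor of embryonic stem cells. The SOXB2 proteins SOX14 and SOX21 act mainly as repressors, and SOX21 is known to promote exit from the progenitor state. TWIST1 binds the E-box CANNTG as a dimer and is best known in mesoderm, neural crest and epithelial-mesenchymal transition.

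The lists had very different lengths. OE libraries 1 to 4 listed 22388, 106821, 87441 and 14160 peaks, KO libraries 2 and 3 listed 104 and 71, and the KO input listed 1774. OE libraries 2 and 3 thus stand apart from OE libraries 1 and 4, and each value below is given by library. Without read totals the depth behind a list is unknown, and no interval that needs it is given. The fold of a peak is the authors' enrichment over the caller's local background, and its percentile is its rank within its own list, where 100 is the strongest. They serve here to describe single lists. Their median over all peaks was 9.48, 5.02, 5.24 and 9.53 in OE libraries 1 to 4, so the same fold ranks lower in OE libraries 1 and 4.

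Promoter sequence was available for 4 of the 5 genes. Each window covers 250 bases before the RefSeq gene start and the first 20 of the gene, on GRCm38.p6. Sox2 is shown because every OE library had a peak over its window, Sox14 because OE libraries 2 and 3 had their strongest Sox14 peak there, and Sox1 because OE libraries 3 and 4 had a peak across its window, which held no E-box. An OE library 2 peak reached the Sox1 window by only 6 bp. Capitals mark CANNTG, searched on both strands, which are the same for this palindromic pattern.
Sox2, chr3:34649745-34650014, plus strand: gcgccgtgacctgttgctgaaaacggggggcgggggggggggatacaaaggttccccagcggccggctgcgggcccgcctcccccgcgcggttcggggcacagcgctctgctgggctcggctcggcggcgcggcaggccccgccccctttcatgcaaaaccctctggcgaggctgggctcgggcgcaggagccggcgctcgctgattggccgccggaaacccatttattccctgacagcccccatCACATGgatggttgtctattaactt
Sox14, chr9:99876151-99876420, minus strand: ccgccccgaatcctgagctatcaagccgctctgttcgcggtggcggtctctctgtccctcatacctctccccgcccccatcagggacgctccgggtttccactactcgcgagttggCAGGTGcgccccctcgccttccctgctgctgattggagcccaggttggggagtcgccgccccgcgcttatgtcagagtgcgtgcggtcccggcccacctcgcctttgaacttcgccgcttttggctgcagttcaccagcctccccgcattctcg
Sox1, chr8:12395269-12395538, plus strand: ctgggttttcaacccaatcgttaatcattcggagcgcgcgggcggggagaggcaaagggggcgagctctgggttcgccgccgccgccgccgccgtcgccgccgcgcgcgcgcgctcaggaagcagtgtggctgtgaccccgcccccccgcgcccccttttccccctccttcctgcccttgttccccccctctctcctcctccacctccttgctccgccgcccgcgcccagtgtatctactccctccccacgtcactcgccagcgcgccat

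The Sox2 window held 1 CANNTG, the sequence CACATG, which spans the gene start with 5 bases before it and 1 within it. The Sox14 window held 1, CAGGTG, which begins 134 bases before the start. The Sox1 and Sox21 windows held 0. Of 32851 RefSeq promoter windows of the same 270 bases, 68.9% held a CANNTG, so its presence at Sox2 and Sox14 is common. None of the 4 windows held CATATG, an E-box that occurred in 3.65% of all windows. CAGATG or its other-strand form CATCTG occurred in 15.6% of windows, the form CAGCTG in 14.2% and the form CACGTG in 6.57%, and none of these was in the 4 windows either. The 4 windows were GC-rich, at 71.1% for Sox1, 69.3% for Sox2, 65.9% for Sox14 and 64.4% for Sox21, against a median of 52.6%. These matches describe letters in a short window, and the sequence under the distal peaks was not used here.

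Sox2, Sox1 and Sox21 had peaks in every OE library and none in either KO library. Sox2 had 4, 31, 25 and 4 peaks in OE libraries 1 to 4, against 0 and 0 in KO libraries 2 and 3 and 0 in the KO input. Sox1 had 4, 30, 21 and 3, against 0 and 0 in KO and 0 in the input. Sox21 had 2, 8, 7 and 2, against 0 and 0 in KO and 1 in the input. For these 3 genes the OE and KO libraries did not overlap. That held for 34.9% of all protein-coding genes, against 3 of the 5 here.

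The other 2 genes had no peak in OE library 4. Sox3 had 1, 5, 4 and 0 peaks in OE libraries 1 to 4, against 0 and 0 in KO and 0 in the input. Sox14 had 1, 7, 6 and 0, against 0 and 0 in KO and 0 in the input. At both genes OE library 4 was thus level with the KO libraries. All 5 genes had at least 1 peak in OE libraries 1, 2 and 3, and 3 had one in OE library 4. The share of all protein-coding genes with a peak was 47.2%, 80.6%, 77.5% and 37.4% in OE libraries 1 to 4, so a peak in OE library 2 or 3 sets a gene little apart. In KO library 2, KO library 3 and the KO input 0, 0 and 1 of the 5 genes had a peak, against 0.21%, 0.0959% and 5.28% of all genes.

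**Figure D1:**
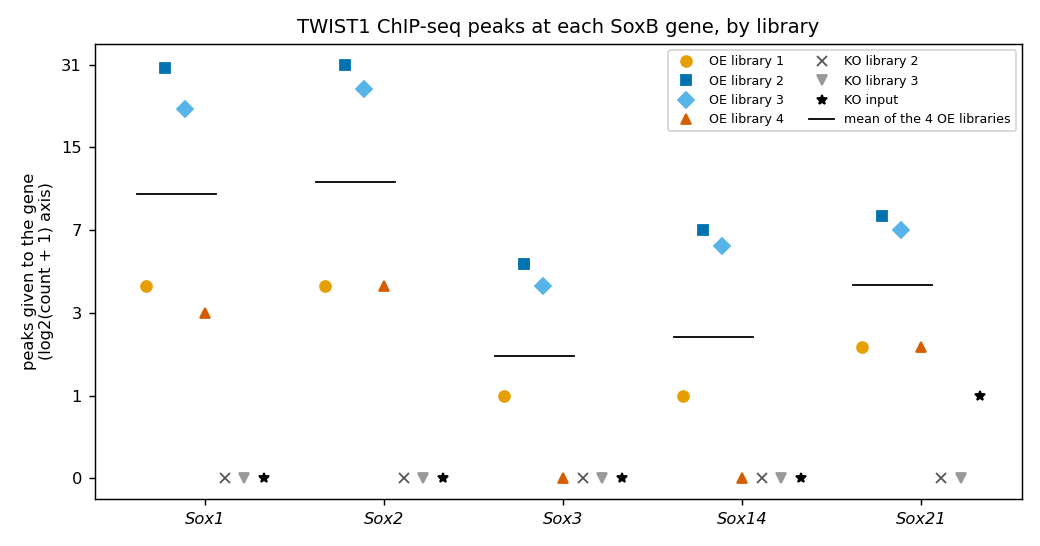
Peaks given to each SoxB gene (vertical axis, log2(count + 1) scale, labelled in peaks) in each library, with OE libraries to the left of the KO libraries and the KO input, and black lines at the mean of the 4 OE libraries on that scale. OE libraries 2 and 3 lie above OE libraries 1 and 4 at every gene, every KO library lies at 0, and the single input peak is at Sox21.

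On the log2(count + 1) scale the OE minus KO difference was 3.59 for Sox2, 3.43 for Sox1, 2.33 for Sox21, 1.70 for Sox14 and 1.48 for Sox3. None passed the test. The two-sided exact permutation test over all 15 splits of the 6 ChIP libraries gave p = 0.0667 for Sox21, 0.133 for Sox1 and Sox2 and 0.267 for Sox3 and Sox14. With Benjamini-Hochberg adjustment over all 21887 genes, the exact permutation p was 0.351 for Sox21, 0.382 for Sox1 and Sox2 and 0.608 for Sox3 and Sox14. The design cannot give an exact p under 0.0667, so 0 genes of the genome had an unadjusted p under 0.05, and 4160 genes reached the smallest value. The spread came from the OE side, where peak counts averaged 16 ± 14.1 at Sox2, 14.5 ± 13.2 at Sox1, 4.75 ± 3.20 at Sox21, 3.5 ± 3.51 at Sox14 and 2.5 ± 2.38 at Sox3 (SD, n = 4 OE libraries), against 0 in both KO libraries. Without OE library 2 the Sox1 mean was 9.33.

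Sox2 and Sox1 were among the genes with most peaks. Sox2 had more peaks than 94.3%, 99.3%, 99.0% and 97.8% of protein-coding genes in OE libraries 1 to 4, and Sox1 more than 94.3%, 99.1%, 98.3% and 95.02%. The median gene had 0, 3, 2 and 0. Both also have wide surroundings. A gene's territory (its body and the gap up to the midpoint toward each neighbour, at most 100 kb on each side) measured 202 kb for Sox2 and Sox3, 180 kb for Sox14, 147 kb for Sox1 and 53.4 kb for Sox21, against a median of 45.8 kb.

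Per 100 kb of territory, Sox1 had 2.72, 20.4, 14.3 and 2.04 peaks in OE libraries 1 to 4. Sox21 had 3.75, 15.0, 13.1 and 3.75, and Sox2 had 1.98, 15.3, 12.3 and 1.98. The median gene had 0, 5.24, 4.11 and 0, so these 3 genes were above it in every OE library. In OE libraries 1 and 4 any gene with a peak is above a median of 0. The order of the 3 genes among themselves changed with the library, with Sox21 first in OE libraries 1 and 4 and Sox1 first in OE libraries 2 and 3. Sox14 had 0.554, 3.88, 3.32 and 0, and Sox3 had 0.495, 2.47, 1.98 and 0. Both were below the median gene in OE libraries 2 and 3, above it in OE library 1 and level with it at 0 in OE library 4. By the mean count of the 4 OE libraries per 100 kb, Sox1 was above 85.2% of protein-coding genes. Sox21 was above 82.8%, Sox2 above 79.7%, Sox14 above 39.9% and Sox3 above 30.3%. Sox1 and Sox2 thus ranked lower by density than by peak count. All 5 genes together took 0.0538%, 0.0759%, 0.0721% and 0.0639% of the peaks of OE libraries 1 to 4, so their share was alike in lists of very different length.

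Overlapping OE peaks (by 1 bp or more) were joined into regions. A reproducible region is one with a peak of each of the 4 OE libraries that touches no peak of either KO ChIP library or of the KO input. Of the 5 genes, 2 had a reproducible region, Sox2 and Sox1, with 2 regions each. The share over all genes was 30.3%, so a count of 2 among 5 is near the background. Sox21 had 1 region in all 4 OE libraries that also met the input peak. Sox14 and Sox3 had none in all 4. Counted with looser support, the 5 genes had 82 regions in at least 1 OE library, 55 in at least 2, 11 in at least 3 and 5 in all 4. Every region in exactly 2 libraries was one of OE libraries 2 and 3. Without OE library 1 there were 7 reproducible regions at the 5 genes, and without OE library 4 there were 7 as well, when 31.7% and 40.9% of all genes had one.

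**Figure D2:**
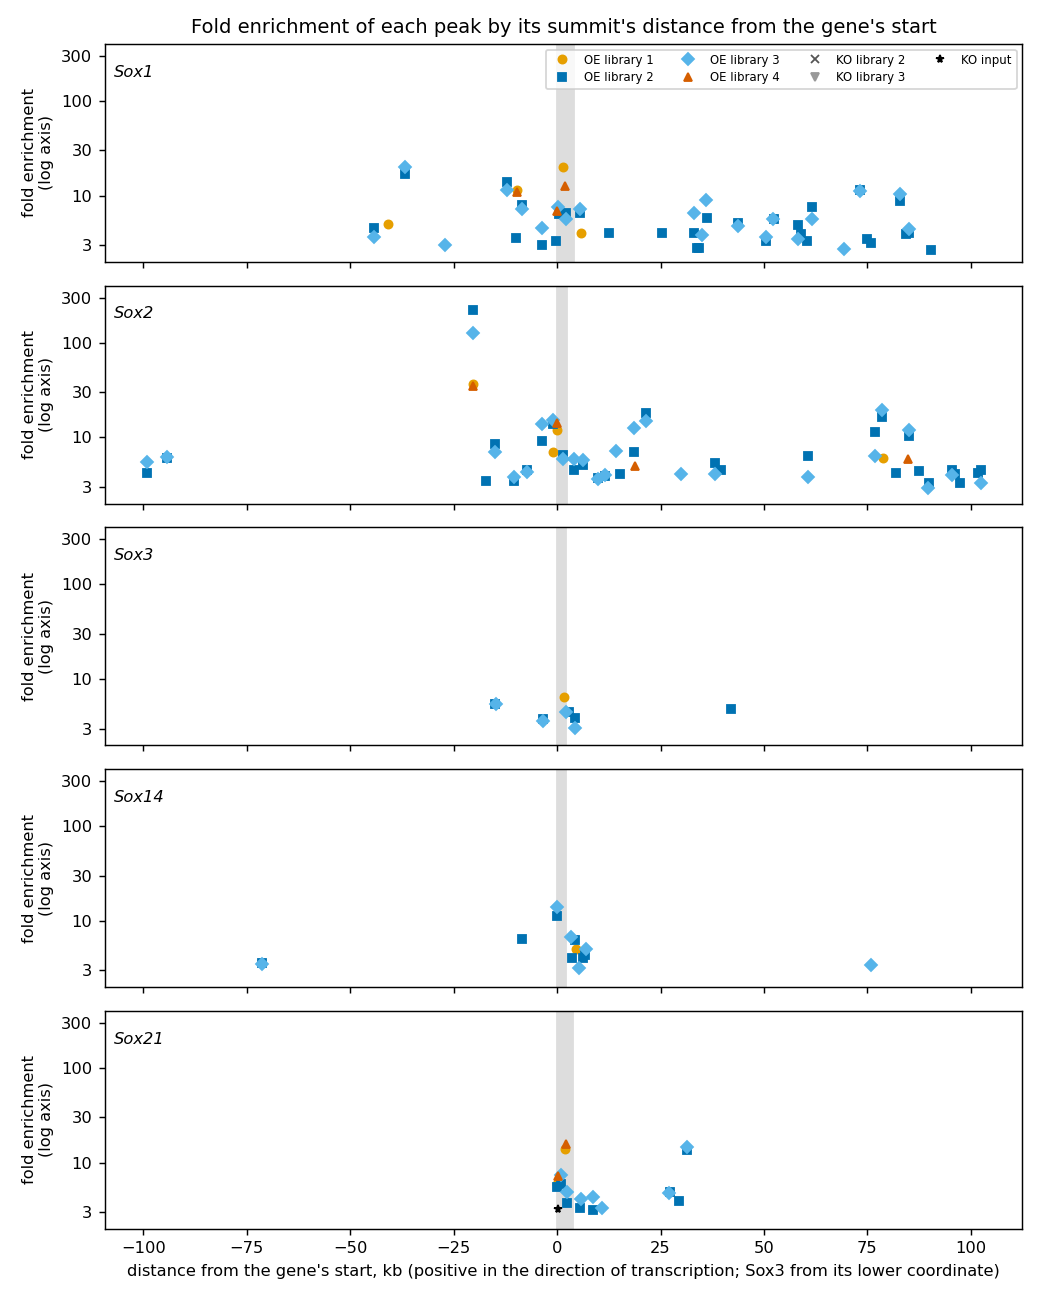
Fold enrichment of every peak given to the 5 genes (vertical axis, log scale) by the distance of its summit from the gene start in kb, positive in the direction of transcription (Sox3 from its lower coordinate), with 1 symbol per library and the gene in grey. The Sox2 peaks 20.4 kb upstream, at 34.96 to 220, stand above all others of the 5 genes.

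Sox2 (gene ID 20674, chr3:34649995-34652461) is a single-exon gene that lies alone, with Dnajc19 569 kb away on the lower side and Atp11b 1102 kb on the higher side. It lies within the long non-coding RNA gene Sox2ot, and with non-coding genes allowed to take peaks Sox2 itself kept 0 reproducible regions. Its strongest region was intergenic among protein-coding genes, 20.4 kb upstream of the start (chr3:34628798-34630162). The folds there were 36.9, 220, 127 and 34.96 in OE libraries 1 to 4. They ranked at percentiles 93.2, 99.8, 99.4 and 94.2 of those lists, high in each and highest in the long lists of OE libraries 2 and 3. The summits lay 20362, 20392, 20384 and 20365 bp before the start. They fell within 30 bp of each other, closer than in any other region of the 5 genes that all 4 OE libraries shared within 100 kb.

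The other reproducible Sox2 region covered the promoter (chr3:34647914-34650531, 2618 bp). Folds were 11.98, 13.9, 15.1 and 14.1 in OE libraries 1 to 4, with a mean of 13.8 ± 1.30 (SD, n = 4). The percentiles were 62.5, 89.1, 89.9 and 70.0, so the promoter peak was of middling to high rank. Its summits were less aligned. The strongest summit lay 91 and 143 bp before the start in OE libraries 1 and 4, and 1074 and 1015 bp before it in OE libraries 2 and 3. OE library 1 had a weaker peak at the farther place as well, with its summit 1074 bp before the start and a fold of 6.99. The window printed above, with CACATG across the start, was covered by a peak in all 4 OE libraries.

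The remaining Sox2 peaks rested on fewer libraries. In OE libraries 1, 2 and 3 the folds 76.2 kb downstream were 5.99, 16.3 and 19.4. The region 82.6 kb downstream had 10.3, 12.1 and 5.90 in OE libraries 2, 3 and 4, and one 16.2 kb downstream had 7.05, 12.6 and 4.99 in the same libraries. In all 3 the folds of OE libraries 1 and 4 ranked low in their lists, at percentiles 18.8, 15.4 and 5.71. Regions 19.03 kb downstream (18.3 and 14.9) and 3.58 kb upstream (9.24 and 13.9) were listed in OE libraries 2 and 3 alone. Over the gene body itself OE libraries 2 and 3 had a peak, at 6.58 and 5.88, and OE libraries 1 and 4 had none with a summit inside.

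The limit of 100 kb falls inside a run of Sox2 peaks. Just within it, 99.9 kb downstream, was a region with folds of 4.55 and 3.34 in OE libraries 2 and 3. Between 100 and 200 kb downstream lay 4 regions found in all 4 OE libraries with no KO or input peak, and Sox2 is the nearest protein-coding gene to each. At 108 kb (chr3:34759746-34761877) the folds were 11.98, 28.1, 25.3 and 7.72 in OE libraries 1 to 4. At 135 kb (chr3:34786516-34788000) they were 18.0, 80.9, 91.5 and 17.3. The region at 143 kb (chr3:34795118-34796215) had 18.97, 55.3, 56.6 and 15.0, and that at 167 kb (chr3:34819277-34820007) had 16.0, 36.0, 38.6 and 11.8.

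These distal regions had well-aligned summits, within 65, 53, 12 and 28 bp over the 4 OE libraries in the order given. Their mean percentiles were 72.02, 88.5, 87.1 and 82.3. The Sox2 promoter had a mean percentile of 77.9, above the region at 108 kb and below the other 3. In OE library 4 the folds at 108 and 167 kb (7.72 and 11.8) were under that of the promoter (14.1). A distal downstream cluster of enhancers is known to drive Sox2 in mouse embryonic stem cells. Whether these regions coincide with it was not tested.

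**Figure D3:**
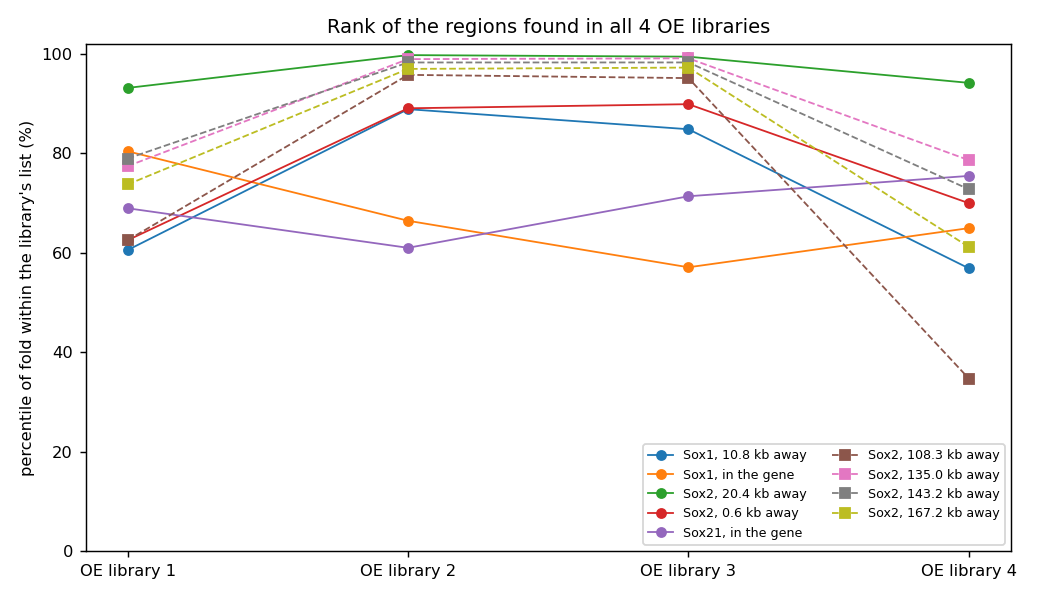
Percentile of fold within the library's own list (vertical axis, %) for each region found in all 4 OE libraries, with solid lines for regions within 100 kb and dashed lines for the 4 Sox2 regions beyond it. The Sox2 region 20.4 kb upstream is above 93 in every library, and the region at 108 kb drops to 34.7 in OE library 4.

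Sox1 (gene ID 20664, chr8:12395519-12399555) has A230072I06Rik 112 kb below it and Spaca7 173 kb above it. It is an early marker of neural plate commitment and lies within the long non-coding RNA gene Sox1ot. One of its reproducible regions was 10.8 kb upstream (chr8:12383109-12386142, 3034 bp). The folds there were 11.5, 13.8, 11.4 and 10.9 in OE libraries 1 to 4, and the percentiles were 60.5, 88.9, 84.8 and 56.9. These folds were close to each other, with a mean of 11.9 ± 1.29 (SD, n = 4), but the summits were not. They lay 9646 and 9634 bp before the start in OE libraries 1 and 4, and 12029 and 12034 bp before it in OE libraries 2 and 3. The merged region joins these summits, 2400 bp apart, through overlapping peaks.

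The other Sox1 region was inside the gene (chr8:12396348-12397892). Its folds were 19.96, 6.58, 5.72 and 12.7 in OE libraries 1 to 4, so the folds of OE libraries 1 and 4 were the larger here. Within their lists the peaks ranked at percentiles 80.4, 66.4, 57.1 and 64.9, which puts OE library 1 highest and OE library 4 beside OE library 2. The summits lay 1444, 2190, 2160 and 1903 bp after the start. The start itself was covered by a peak in OE libraries 3 and 4, with folds of 7.63 and 6.81. In the same merged region (chr8:12394724-12396243) OE library 2 had a peak on either side of the start, at 3.29 with its summit 349 bp before it and at 6.43 with its summit 346 bp after it, and OE library 1 had none. A further region 1.49 kb past the gene's end had 3.99, 6.58 and 7.31 in OE libraries 1, 2 and 3. The strongest Sox1 peaks of OE libraries 2 and 3 were 36.7 kb upstream (16.8 and 20.2), where OE libraries 1 and 4 had no peak.

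Sox3 (gene ID 20675, chrX:60891366-60893430), the X-linked SOXB1 gene, lies alone between Gm715 (342 kb) and Cdr1 (290 kb). It had no region in more than 2 libraries. OE library 1 had a single peak inside the gene (chrX:60892680-60893240) with a fold of 6.49, at percentile 24.7 of its list. OE libraries 2 and 3 had no peak there, and their regions lay 14.9 kb (5.49 and 5.40) and 3.48 kb (3.76 and 3.66) on the lower side, and just past the higher end (4.55 and 4.45) and 2.28 kb beyond it (3.92 and 3.02). OE library 2 alone had a peak 39.9 kb away at 4.86. The highest percentile any Sox3 peak reached was 55.7, in OE library 2, so Sox3 peaks were of middling or low rank in every list. The strand of Sox3 is not in the table used here, so upstream and downstream are not given for it.

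Of the SOXB2 genes, Sox14 (gene ID 20669, chr9:99874106-99876170), a repressor gene known from subsets of spinal and midbrain interneurons, lies between Cldn18 (157 kb) and Il20rb (582 kb). Its strongest peak was at the start, in OE libraries 2 and 3 only (chr9:99875780-99876896). The folds were 11.1 and 14.1, at percentiles 84.7 and 88.9, with summits 21 and 39 bp after the start. The peaks cover the window printed above with its CAGGTG. OE libraries 1 and 4 had no peak at the start. The 1 Sox14 peak of OE library 1 fell in a region 2.01 kb past the gene's end (chr9:99871245-99873327), with folds of 4.99, 6.27 and 6.67 in OE libraries 1, 2 and 3, at percentiles 7.62, 63.9 and 66.1.

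Sox21 (gene ID 223227, chr14:118233233-118237030), between Gpr180 (69 kb) and Gm9376 (30 kb), had a region over the gene in all 4 OE libraries. The 2 Sox21 peaks of OE library 1 and the 2 of OE library 4 were inside the gene, against 3 of 8 in OE library 2 and 2 of 7 in OE library 3. The merged region (chr14:118234301-118237638) spanned most of the gene and its start. The strongest peak of each library in this region had a fold of 13.97, 5.96, 7.47 and 15.9 in OE libraries 1 to 4, and the percentiles were 68.9, 61.0, 71.4 and 75.5. These peaks fell in different parts of the gene. Their summits lay 1930 and 2023 bp after the start in OE libraries 1 and 4, and 879 and 883 bp after it in OE libraries 2 and 3. OE libraries 2 and 3 also had weaker peaks near the farther place, with summits 2446 and 2276 bp after the start and folds of 3.76 and 4.93.

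Near the Sox21 start the ChIP peaks met a peak of the KO input (chr14:118236728-118236963), with a fold of 3.22, a −log10 q of 3.13 and its summit 96 bp after the start. A peak of every OE library covered that place, with folds of 5.99, 5.49, 7.47 and 7.26 in OE libraries 1 to 4, and no KO ChIP library had one. For that reason the Sox21 region did not count as reproducible, and the part of input signal in it was not tested. The peaks of OE libraries 1 and 4 farther inside the gene did not touch the input peak. With peaks limited to a −log10 q of at least 5, which drops the input peak, Sox21 had 1 reproducible region and the count was 3 of 5 genes, against 29.2% of all genes. Removing only the overlapping OE peaks, an alternative chosen after seeing the data, also gave 3 of 5, against 30.3%. Outside the gene, OE libraries 2 and 3 shared their strongest Sox21 peak, 27.7 kb downstream with folds of 13.5 and 14.5, at percentiles 88.4 and 89.4, which OE libraries 1 and 4 did not list.

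**Figure D4:**
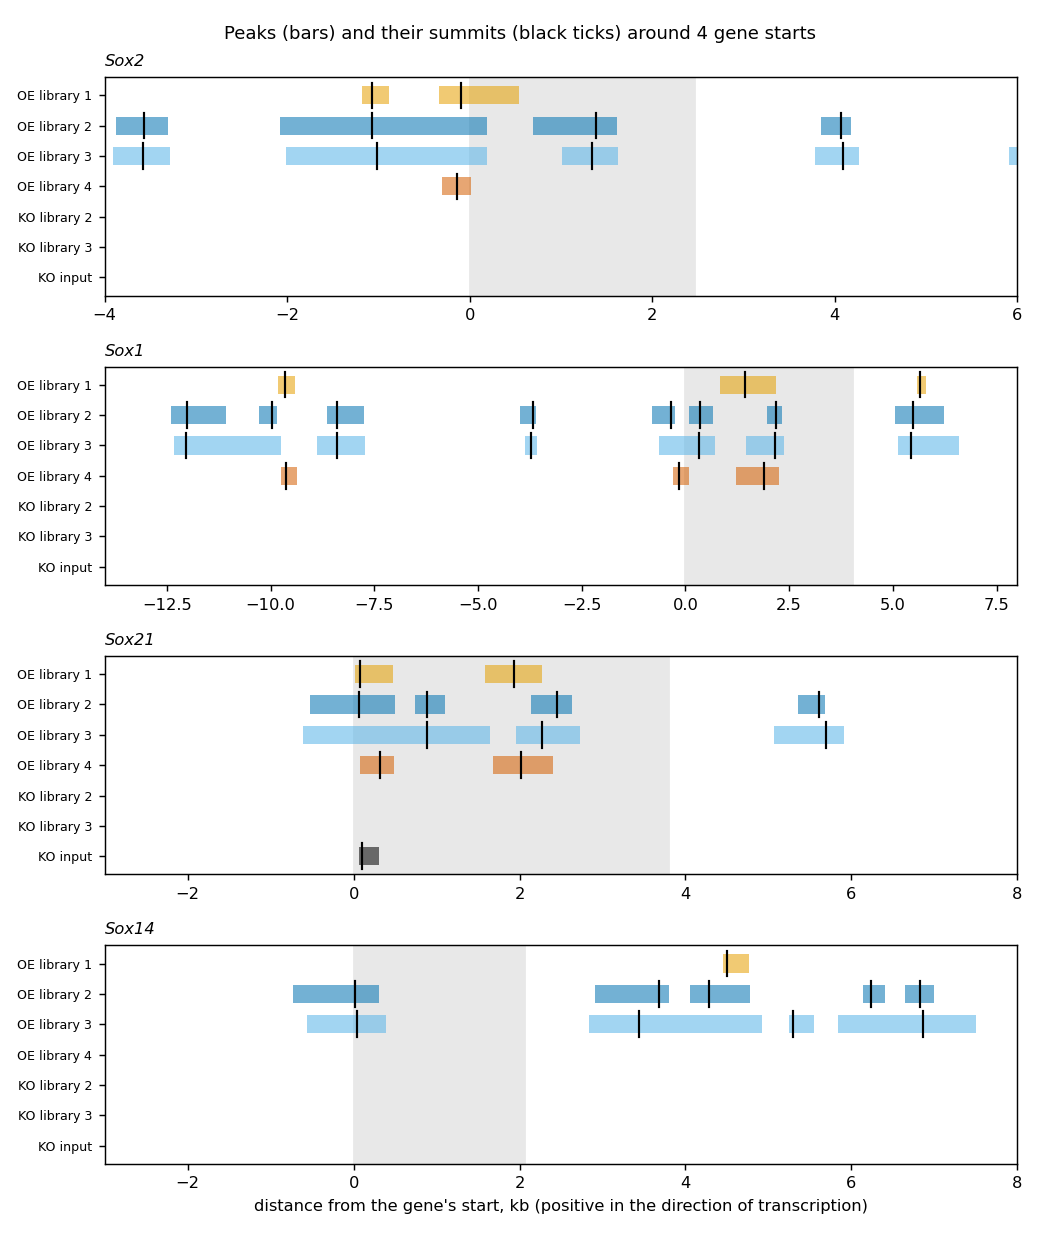
Peaks (bars) and their summits (black ticks) around 4 gene starts, by distance from the start in kb in the direction of transcription, 1 row per library with the OE libraries above the KO libraries and the KO input, and the gene in grey. At the Sox2 promoter, 10.8 kb upstream of Sox1 and inside Sox21, the strongest summits of OE libraries 1 and 4 in the region pair with each other. Those of OE libraries 2 and 3 do so as well. Inside Sox1 the summits lie 1444, 2190, 2160 and 1903 bp after the start in OE libraries 1 to 4, without a clear pair of OE libraries 1 and 4.

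The same pairing of libraries ran through 3 of the 5 regions shared by all 4 OE libraries within 100 kb. At the Sox2 promoter, 10.8 kb upstream of Sox1 and inside Sox21, summits were spread over 983, 2400 and 1144 bp, and OE libraries 1 and 4 lay together apart from OE libraries 2 and 3. Inside Sox1 the spread was 746 bp, and 20.4 kb upstream of Sox2 it was 30 bp. At the shared Sox2 regions beyond 100 kb it was 65, 53, 12 and 28 bp. When the summits of all 4 OE libraries had to fall within 100 bp, the region 20.4 kb upstream of Sox2 was the 1 left within 100 kb of the 5 genes. The share of all genes with such a region was then 17.0%. What sets the libraries apart is not given in the labels and was not tested.

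The KO ChIP libraries had no peak near any of the 5 genes. The nearest KO library 2 peak was 7876 kb from Sox1, 26404 kb from Sox2, 41358 kb from Sox3, 23586 kb from Sox14 and 98816 kb from Sox21. For KO library 3 these distances were 7739, 28789, 65800, 96839 and 98816 kb. These lists hold so few peaks that most genes lack one. The nearest input peaks lay 706, 1941, 7786 and 631 kb from Sox1, Sox2, Sox3 and Sox14.

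The strongest peak of each gene gives a rank in each list. It is the highest of all the gene's peaks, so a gene with more peaks can rank higher by their number alone. In OE library 2, Sox2, Sox1, Sox21, Sox14 and Sox3 had 31, 30, 8, 7 and 5 peaks. The median percentiles of those peaks were 40.8, 30.6, 37.3, 37.6 and 40.8. For the strongest peak, the mean percentile over the OE libraries that listed one was 96.6 for Sox2, 82.6 for Sox1 and 80.5 for Sox21 (4 libraries each). It was 60.4 for Sox14 and 44.5 for Sox3 (3 libraries each). Sox1 and Sox21 do not separate in this order. Sox1 ranked at 80.4, 91.6, 93.3 and 64.9 in OE libraries 1 to 4 and Sox21 at 68.9, 88.4, 89.4 and 75.5, so Sox1 was higher in 3 libraries and Sox21 in 1. Sox14 and Sox3 do not separate either, since Sox14 ranked at 7.62, 84.7 and 88.9 in OE libraries 1, 2 and 3 and Sox3 at 24.7, 55.7 and 53.1. Sox2 was the highest of the 5 in every OE library.

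The genes whose strongest peak ranked most like that of Sox2 over the 4 OE libraries were Ddr2, a collagen receptor gene, and Fam227b, at Euclidean distances of 0.712 and 0.770 percentile points among 7669 genes with a peak in all 4. For Sox1 they were Pcdh1, a protocadherin gene, and Enpp7, at 1.94 and 2.23. This likeness is one of rank alone.

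Related gene lists had a reproducible region more often than the genome-wide share of 30.3%, and their territories were wider than the median of 45.8 kb. Of 15 other SOX genes 10 had one, with 17 regions in all and a median territory of 68.96 kb. The strongest by mean percentile were Sox12 (folds of 506, 808, 824 and 307 in OE libraries 1 to 4), Sox9 (101, 317, 281 and 77.2) and Sox5 (91.3, 264, 265 and 47.7), members of the SOXC, SOXE and SOXD groups. Each of these exceeded Sox2 in every OE library. Of 10 SOXB partner factors 6 had one, with 14 regions and a median territory of 130 kb. They were led by the chromatin remodeller gene Chd7 (53.4, 242, 215 and 37.2), and the POU factor genes Pou3f1 (33.4, 117, 80.3 and 20.9) and Pou5f1 (31.4, 73.8, 81.5 and 20.9). The POU genes lay below Sox2 in every OE library and Chd7 above it.

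Of 17 neural progenitor genes known as SOXB targets or co-markers 9 had a reproducible region, with 18 regions and a median territory of 107 kb. Notch1, a receptor that holds back neuronal differentiation, led with folds of 75.9, 313, 227 and 49.0. By mean percentile, among genes with a peak in all 4 OE libraries, Lhx2, a LIM homeobox gene (40.4, 43.4, 37.7 and 34.96), followed. Next came the RNA-binding protein gene Msi1 (20.5, 14.6, 22.9 and 10.9). Genes without a peak in every OE library were left out of this order, Zfp521 and Prom1 among them. In OE libraries 1, 2 and 3 Zfp521 ranked at percentiles 79.7, 96.8 and 96.4, and Prom1 at 62.5, 91.9 and 91.6. Msi1 (mean percentile 80.5) was nearly level with Nes (80.3), which had larger folds in OE libraries 2 and 3 (64.3 and 77.2). The lists were not tested against other genes, and nothing particular to them is drawn from these counts.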

How the data were processed

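TWIST1 ChIP-seq peak lists were read, 1 per library, so the peaks used here were called per sample. The lists do not show whether the authors also pooled replicates. MACS2, Picard, BWA and Trimmomatic, and the builds mm10 and GRCm38.p5, are named in the submitters' processing notes, with no version or setting. The control used in peak calling is not given in the sources used here, and it can change which peaks are listed and their fold. Each deposited peak has a fold enrichment, a linear ratio, and the deposited −log10 of the p-value and q-value, with every q-value at most 0.01. The deposited score column was used only to check the layout. Groups came from the sample titles. The number of deposited peaks per gene is the count tested.

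Peaks on the 21 main chromosomes were given to 21887 protein-coding genes of a RefSeq table of GRCm38.p6, whose coordinates on these chromosomes are those of mm10. The table has no exons and the strand came from the RefSeq promoter table. Coordinates count from 1. A merged region's position was the mean of the strongest summits of its OE libraries. Counts were compared as mean log2(count + 1) by exact permutation, two-sided. Such p-values reflect the spread of these libraries alone, which may be technical. Work was done in Python 3.11.15 with numpy 2.4.6 and pandas 2.3.3, figures in matplotlib 3.10.9, and the steps were tested on simulated data.

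The members, gene lists and tests were chosen with earlier results of these data known. The rule for named genes takes all 5 members, each with every region found in all 4 OE libraries, and their neighbours. It also takes the 2 genes most like each member that has a reproducible region. From each list it takes the 3 strongest by mean percentile, among genes with a peak in all 4 OE libraries. Regions in fewer libraries and regions beyond 100 kb were added as values. Alternatives covered the q-value limit, distance, gene set, list length, overlap, libraries required, a replicate block and leaving out each library.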

Additional observations from a re-analysis of the deposited data

Results flagged for a closer look

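The KO input peak at the Sox21 start lies in data outside the ChIP comparison, with a fold of 3.22 at percentile 32.8 of the input list. No input peak was given to Sox1, Sox2, Sox3 or Sox14. The input is 1 library, and its part in the Sox21 peaks of the OE libraries was not tested. A search for a single library far from the other OE libraries covered 19 quantities, the peak counts of the 5 genes and the folds and percentiles of their shared regions among them. It found 0 past Dixon's critical value, where chance alone would mark about 1 in 20. Such a search looks for 1 value apart from the rest and cannot mark libraries that lie apart as pairs. Peak counts of OE libraries 2 and 3 stood apart from those of OE libraries 1 and 4, as with 4, 31, 25 and 4 at Sox2. Most of that gap went with list length. With each OE list cut by fold to the length of the shortest, Sox2 had 2, 4, 7 and 4 peaks. Sox1 then had 2, 2, 3 and 3, Sox21 had 1, 1, 1 and 2, and Sox14 had 0, 0, 1 and 0. The count of 0 past Dixon's critical value does not show that the OE libraries were alike, and folds and percentiles of the same regions are not independent.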

How the results depend on the processing

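The OE minus KO difference in peak count was recomputed under 9 alternatives (8 for Sox3, since with equal list lengths no OE or KO library had a Sox3 peak). Its sign was fixed by the KO counts of 0, and the design lets no p fall under 0.05, so only its size could move. The differences ranged over 0.5 to 4.85 log2 units at Sox2, 1.29 to 4.71 at Sox1, 1.15 to 3.08 at Sox21, 0.25 to 2.90 at Sox14 and 0.65 to 2.45 at Sox3. Without each library in turn they were 3.11 to 4.01, 2.93 to 3.91, 2.06 to 2.58, 1.27 to 2.27 and 1.11 to 1.97 in the same order.

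Libraries numbered 2 and 3 exist in both groups. With the replicate block the differences were 4.85 at Sox2, 4.71 at Sox1, 3.08 at Sox21, 2.90 at Sox14 and 2.45 at Sox3, with an exact p of 0.5, the smallest that 2 pairs allow. The labels do not say that a number marks a shared culture. The data cannot settle it, since the check rests on the 49 of 21887 genes with a KO peak, over which same-numbered libraries' deviations had a correlation of -0.0675 (0.0044 over all genes, nearly all at 0 in KO). The numbers were therefore not used to pair libraries.

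The count of 4 reproducible regions at the 5 genes became 8 with distances up to 200 kb and 1 with non-coding genes included (at Sox1). It became 1 with summits within 100 bp, 10 with at least 3 of 4 OE libraries and 54 with at least 2. It was 4 to 7 without each OE library, with 7 both without OE library 1 and without OE library 4. The count of 2 genes became 1 with non-coding genes, against 16.6% of all genes with those included, and 1 with summits within 100 bp (17.0%). It became 3 with a −log10 q of at least 5 (29.2%) or at least 10 (21.7%), with 5 regions as Sox21 gains 1. With equal list lengths it stayed at 2 (15.8%), with 3 regions. With at least 3 of 4 OE libraries it was 3 (43.2%). With at least 2 of 4 it was 5, a setting at which 74.9% of all genes had a region. It was 2 to 3 without each OE library, when 30.7% to 40.9% of all genes had one. An added setting, taken after seeing the data, used OE libraries 2 and 3 by themselves and gave 55 regions at 5 genes, against 74.3% of all genes. The median fold over the 4 regions, taken in each OE library, averaged 14.1 ± 1.26 (SD, n = 4 OE libraries) and 13.5 to 14.4 without each OE library. This median does not show the spread at the Sox2 region 20.4 kb upstream, where the mean fold was 105 ± 87.9 (SD, n = 4 OE libraries). Depth could not be judged, since the lists hold no read totals.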
